A study of Rattus norvegicus with 24 samples.

Results

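The inhibitory *Ly49i* receptor genes of the rat natural killer cell gene complex (NKC) are represented on the array by 24 probes for 8 genes, out of 8453 probes for 7249 genes in all. The members were taken from the study's list of NKC probes, in which their symbol is *Ly49i* followed by a number. They are *Ly49i3*, *Ly49i5*, *Ly49i6* and *Ly49i9* with 5 custom-designed probes each, and *Ly49i2*, *Ly49i4*, *Ly49i7* and *Ly49i8* with 1 probe each from the Agilent catalog. The probes of a gene are called a to e below, in the order of their identifiers. All rats that gave skin were BN males aged 15 weeks. From each of 12 rats, 1 skin explant was co-cultured for 3 days with 1000000 syngeneic BN lymphocytes and another with pre-stimulated allogeneic PVG lymphocytes, and both kinds of lymphocytes came from a mixed lymphocyte reaction (MLR) of 7 days with irradiated BN stimulator cells. The 2 RNA samples of a rat were hybridized together to a two-color array and again, with the dyes exchanged, to a second one, which makes 24 arrays and n = 12 rats. Because the added lymphocytes differed in strain and in their relation to the skin at once, an effect of the strain and one of the allogeneic reaction cannot be told apart here. The strain whose sequence served to design the custom *Ly49i* probes is not given in the sources used here.

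The *Ly49* genes encode C-type lectin-like receptors that natural killer (NK) cells carry as paired chains on their surface. The inhibitory members hold a tyrosine motif (ITIM) in the cytoplasmic tail and, on binding class I MHC molecules, recruit phosphatases such as SHP-1 that damp the activation of the cell. The activating members lack this motif and signal through an adaptor such as DAP12, and in the rat some receptors, the *Ly49si* genes, combine both features. The number and the sequence of the *Ly49* genes differ between inbred strains, and neighboring genes are alike over long stretches. A probe can therefore read more than 1 transcript or miss an allele.

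The probes of *Ly49i9*, *Ly49i3* and *Ly49i7* are shown first, since the results turn on them. Each is written 5′ to 3′ as given in the array files, and capitals mark the longest run of bases that it shares with a probe for any other gene on the array.
Ly49i9a: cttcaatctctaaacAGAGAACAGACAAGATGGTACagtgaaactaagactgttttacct
Ly49i9b: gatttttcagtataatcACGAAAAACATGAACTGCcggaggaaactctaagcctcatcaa
Ly49i9c: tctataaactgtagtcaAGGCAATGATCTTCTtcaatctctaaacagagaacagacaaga
Ly49i9d: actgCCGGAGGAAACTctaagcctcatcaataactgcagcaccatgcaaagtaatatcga
Ly49i9e: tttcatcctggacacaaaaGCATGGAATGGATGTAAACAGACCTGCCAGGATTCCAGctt
Ly49i3a: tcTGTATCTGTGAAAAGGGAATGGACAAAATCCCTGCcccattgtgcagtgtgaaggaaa
Ly49i3b: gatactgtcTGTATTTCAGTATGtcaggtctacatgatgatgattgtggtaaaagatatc
Ly49i3c: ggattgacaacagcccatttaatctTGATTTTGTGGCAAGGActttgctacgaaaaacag
Ly49i3d: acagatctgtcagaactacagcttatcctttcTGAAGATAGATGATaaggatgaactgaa
Ly49i3e: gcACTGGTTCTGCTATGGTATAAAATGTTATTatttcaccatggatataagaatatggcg
Ly49i7: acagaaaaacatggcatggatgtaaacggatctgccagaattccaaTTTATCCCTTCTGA
The probes are 60 bases long. Probe Ly49i9e shares 38 bases in 1 run with a probe of *Ly49si1*, and 47 of 49 bases when the pair is aligned without gaps. Probe Ly49i9a shares a run of 21 bases with a probe of *Ly49si3* and with one of *Ly49si2*. Aligned without gaps, it matches another *Ly49si2* probe in 40 of 42 bases. Probe Ly49i9c shares a run of 15 bases with a probe of *Ly49si3* and matches it in 46 of 51 bases. Probe Ly49i9b shares a run of 18 bases with another *Ly49si3* probe. Probe Ly49i9d shares no run of 12 bases or more with a probe of another *Ly49* gene. Among the probes of *Ly49i9* themselves, a and c share 30 bases, as do b and d, so that these 5 probes fall into 3 sets that share no run of 12 bases or more. Probe Ly49i3a is almost a probe of *Ly49s5*, with 57 of 58 bases in common. Probe Ly49i3e shares 30 bases with a probe of *Klra5*, 24 with one of *Ly49si2* and 22 with one of *Ly49s8*. The other probes of *Ly49i3* share runs of at most 17 bases with a probe of any other gene. Only probes were compared with each other, not whole transcripts, so these runs do not show that a probe reads 1 gene alone. Probe Ly49i7 and a probe of *Ly49si1* agree in 52 of 60 bases, with mismatches spread so that their longest common run is 14. In the array files, which use the rat build rn3, the Ly49i7 probe lies on the minus strand at chr4:169048266-169048325, with Ly49i8 at chr4:169168745-169168804, Ly49i2 at chr4:168584645-168584704 and Ly49i4 at chr4:168269072-168269131. The custom-designed probes carry no position in the files, and exon and intron boundaries were not analyzed here.

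Every log2 ratio below gives the sample labeled as allogeneic over the one labeled as syngeneic, according to the dye labels. These signs are opposite to those in the study's tables, so that a negative value stands for a weaker signal where the label says allogeneic. By quantitative real-time PCR in some of the same sample pairs, the study found *Ly49i9* higher in allogeneic than in syngeneic explants. It reported that the regulation of its selected genes was in general reproduced in an independent set of explants. Which direction holds was not tested here. Intensities were background-corrected and loess-normalized within each array. The mean was then taken over a probe's spots and over both arrays of a rat, and limma tested it against 0, with Benjamini-Hochberg adjustment over all probes or, for the mean over a gene's probes, over all genes. A change was called at an adjusted p under 0.05. The arrays lay on 3 slides with 4 rats each. Array 1 of rat 10 was far brighter than the others, and the profile of rat 8 over all probes had a mean correlation of 0.175 with those of the other rats, which otherwise lay between 0.421 and 0.636. Arrays of the same orientation from different rats had correlations of 0.006 to 0.814. The number of rats limits the precision, and the limma p-values set the mean log2 ratio against the spread between these rats.

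Among the 8 *Ly49i* genes, *Ly49i9*, *Ly49i3* and *Ly49i7* had lower signals in RNA carrying the allogeneic label than in RNA carrying the syngeneic one, which makes 3 lower and 0 higher. This is 37.5% of the genes, beside 7.56% called lower among all genes on the array. The log2 ratio was -2.28 ± 0.78 (SD, n = 12 rats) for *Ly49i9*, -0.37 ± 0.20 for *Ly49i3* and -0.28 ± 0.20 for *Ly49i7*. How the background was removed changed these sizes. From the processed signals of the scanner they were -3.69, -0.99 and -1.27, and with the deposited table of log ratios -3.35, -0.85 and -0.89, in the same order. In bulk tissue, a difference in the number of cells with the transcript and one in RNA per cell cannot be told apart, whichever direction holds. The remaining 5 genes had mean log2 ratios between -0.058 for *Ly49i6* and -0.009 for *Ly49i4*. The median over the 8 genes was -0.045, against 0.012 over all genes. At the level of probes, 9 of 24 were called lower and 0 higher, which is again 37.5%, beside 8.48% called lower among all probes. Before adjustment, 14 probes had a p under 0.05 (limma), a count not read as a result because the share over all probes at that threshold was not computed. The 9 called were all 5 probes of *Ly49i9*, probes d and e of *Ly49i3*, probe b of *Ly49i6* and the probe of *Ly49i7*. When array 1 of rat 10 was left out, 15 probes and 5 genes were called lower, and the same numbers were found without rat 10. The genes added were *Ly49i6* and *Ly49i8*, at log2 ratios of -0.07 and -0.05.

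**Figure D1:**
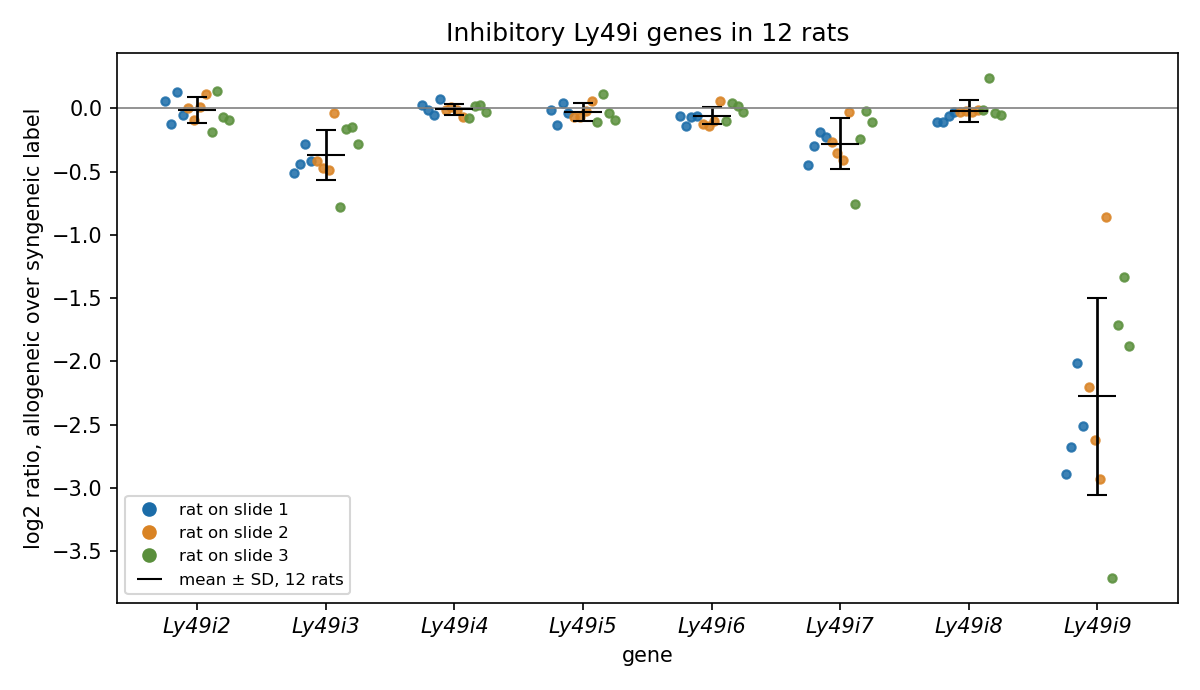
Log2 ratio of the sample labeled as allogeneic over the one labeled as syngeneic (y axis) for the 8 *Ly49i* genes (x axis). Points are the 12 rats, colored by slide, and black bars give the mean ± SD. *Ly49i9* lies between -3.71 and -0.86 in all rats, *Ly49i3* and *Ly49i7* lie below 0 in every rat, and the other genes scatter around 0.

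*Ly49i9*, one of the inhibitory receptor genes, had 5 probes, which each gave a lower value in 12 of 12 rats. For probe Ly49i9e, the rats ran from -4.12 over a median of -2.69 to -1.09. For probe Ly49i9b, whose mean was nearest to 0, they ran from -3.45 over a median of -2.19 to -0.84. In every one of the 5 probes rat 9 had the lowest and rat 8 the highest value. The gene mean was lower in each rat, with a standard error of 0.21 and an adjusted p of 4.39e-05 (limma). That is a 4.85-fold lower signal, and only 2 of the 7249 genes had a lower mean. The mean on the 3 slides was -2.52, -2.15 and -2.16. Without array 1 of rat 10 it was -2.42, and leaving out any single rat kept it between -2.41 and -2.15.

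The levels of each channel show where the spread between the rats lay. In the sample labeled as syngeneic, the normalized log2 intensity of probe Ly49i9e ran from 8.08 over a median of 10.01 to 11.46. In the sample labeled as allogeneic it ran from 6.84 over a median of 7.01 to 7.96, so that the groups did not overlap. Of the 24 member probes this was 1, and over the whole array it was 11 of 8453 probes, or 0.13%. For the other 4 probes of *Ly49i9* the syngeneic range started at 7.10 to 7.50, in rat 8, and the allogeneic range reached 7.28 to 8.24, in rat 10 for a, b and d and in rat 5 for c. Averaged over the 5 probes, the level had an SD of 0.84 over the rats in the syngeneic and of 0.29 in the allogeneic sample. The log2 ratio had a Pearson correlation of -0.938 and a Spearman correlation of -0.923 with the syngeneic level, and of -0.035 and -0.077 with the allogeneic one, over the same 12 rats. These are descriptions, since the ratio is made from the 2 levels. In the allogeneic channel probe b was well above background on only 11 of 24 arrays, and nearness to the background can limit the spread there.

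**Figure D2:**
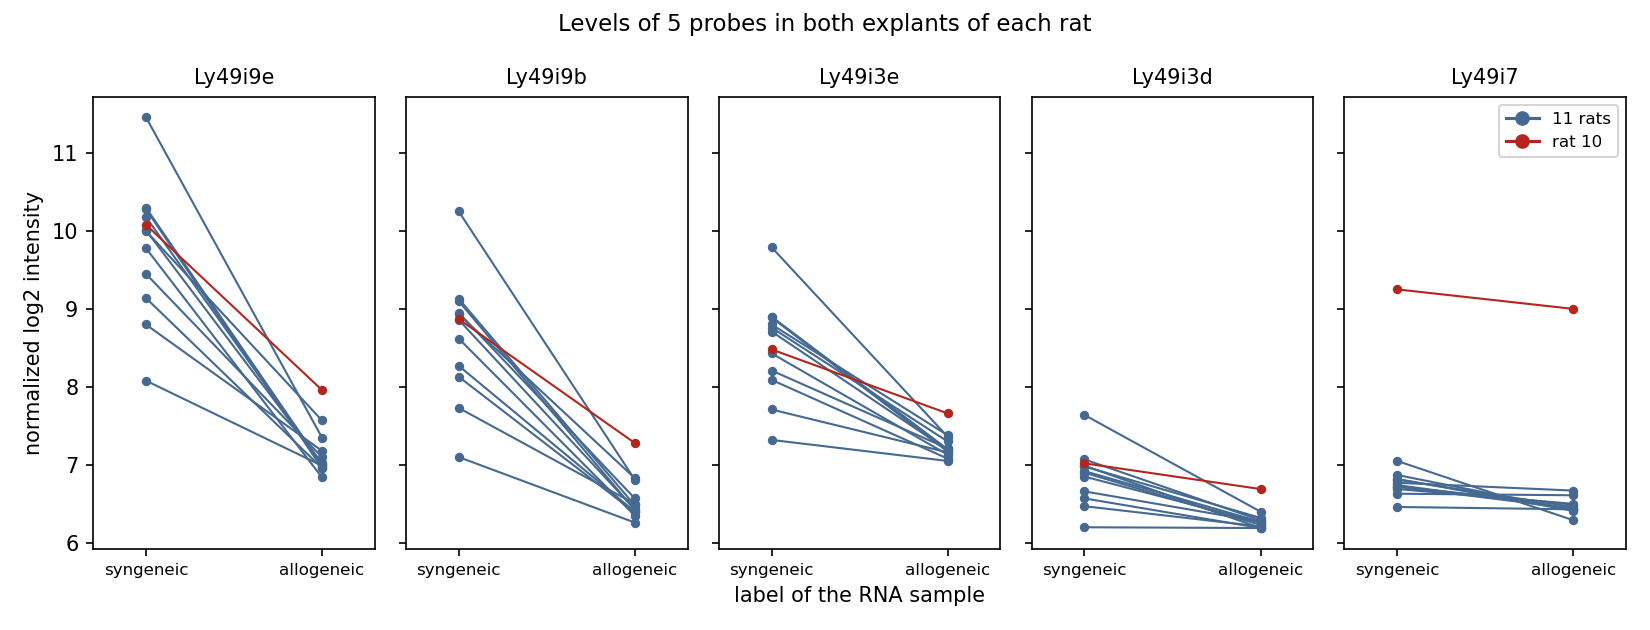
Normalized log2 intensity (y axis) of 5 probes in the sample labeled as syngeneic and the one labeled as allogeneic (x axis). Each line joins both explants of a rat, and rat 10 is drawn in red. The syngeneic points of Ly49i9e spread from 8.08 to 11.46 and the allogeneic ones from 6.84 to 7.96, and rat 10 lies far above the other rats in both samples for Ly49i7.

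All 5 probes of *Ly49i9* were well above background, by at least 1 spot, on 24 of 24 arrays in the syngeneic channel. In the allogeneic channel this held on 24 arrays for d and e, 22 for c, 20 for a and 11 for b, so that the size of the change in b rests in part on signal near the background. With the processed signals the value of b was -4.34 and that of the gene -3.69. Over the rats, the 5 probes moved together with pairwise correlations of 0.99 or more. Their means still differed in 8 of 10 pairs (exact permutation of signs over 12 rats, two-sided, adjusted over the 10 pairs). Probe e was lower than each of the others in all 12 rats, by 0.40 to 0.53, and the adjusted p was 0.00122 in each case. The difference between a and d was -0.01 with a 95% interval of -0.05 to 0.04. With the processed signals e was at -3.61 and thus above b, so that the order of the probes depends on the background correction.

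Of the 5 probes for *Ly49i3*, d and e were called lower. Probe Ly49i3e had values of -2.43 to -0.26 over the rats, with a median of -1.36, and probe Ly49i3d had -1.24 to -0.01, with a median of -0.63. In both, rat 9 was lowest and rat 8 highest, as for *Ly49i9*. Each was lower in 12 of 12 rats, with means of -1.27 ± 0.58 and -0.56 ± 0.32 (SD) and adjusted p of 0.000217 and 0.000855 (limma). Probes a, b and c stayed within -0.19 to 0.23 in every rat. Probe a was bright in both samples, with median levels of 8.37 in the allogeneic and 8.35 in the syngeneic one, whereas b and c were well above background on 1 array in the allogeneic channel and on 4 and 1 in the syngeneic one. Near the background a log2 ratio can hardly move from 0, so that b and c are not set against the others here. Probes a and e were well above background on 24 arrays in both channels. They differed in all 12 rats (exact permutation, adjusted p = 0.000697 over the 10 pairs of the gene), with a minus e at 1.29 ± 0.56. Probe d was well above background on 19 arrays in the syngeneic channel but 2 in the allogeneic one. Its differences, 0.59 ± 0.30 for a minus d and 0.70 ± 0.27 for d minus e, are therefore given as a description.

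Set beside the sequences, the probe of *Ly49i3* that is nearly identical to one of *Ly49s5* stayed near 0, and that *Ly49s5* probe had a log2 ratio of 0.01 ± 0.08. The probes of other genes that share runs of 22 to 30 bases with Ly49i3e were all lower: *Ly49si2* at -1.93 ± 0.82, *Klra5* at -0.45 ± 0.33 and *Ly49s8* at -0.28 ± 0.24. Probe Ly49i3d, which shares runs of at most 14 bases with a probe of any other gene, was also lower. It was, however, well above background on 19 arrays in the syngeneic and 2 in the allogeneic channel. Its value was -2.63 with the processed signals. In *Ly49i6*, by contrast, probe e shares 26 bases with a *Klra5* probe at -0.53 ± 0.42 and was itself at -0.06 ± 0.07, well above background on 1 array in the allogeneic and 2 in the syngeneic channel. The share of other transcripts in these signals was not tested. The gene mean of *Ly49i3* was called at an adjusted p of 0.000755. Taken as the median over its 5 probes it was -0.05 and not called (adjusted p = 0.0886).

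**Figure D3:**
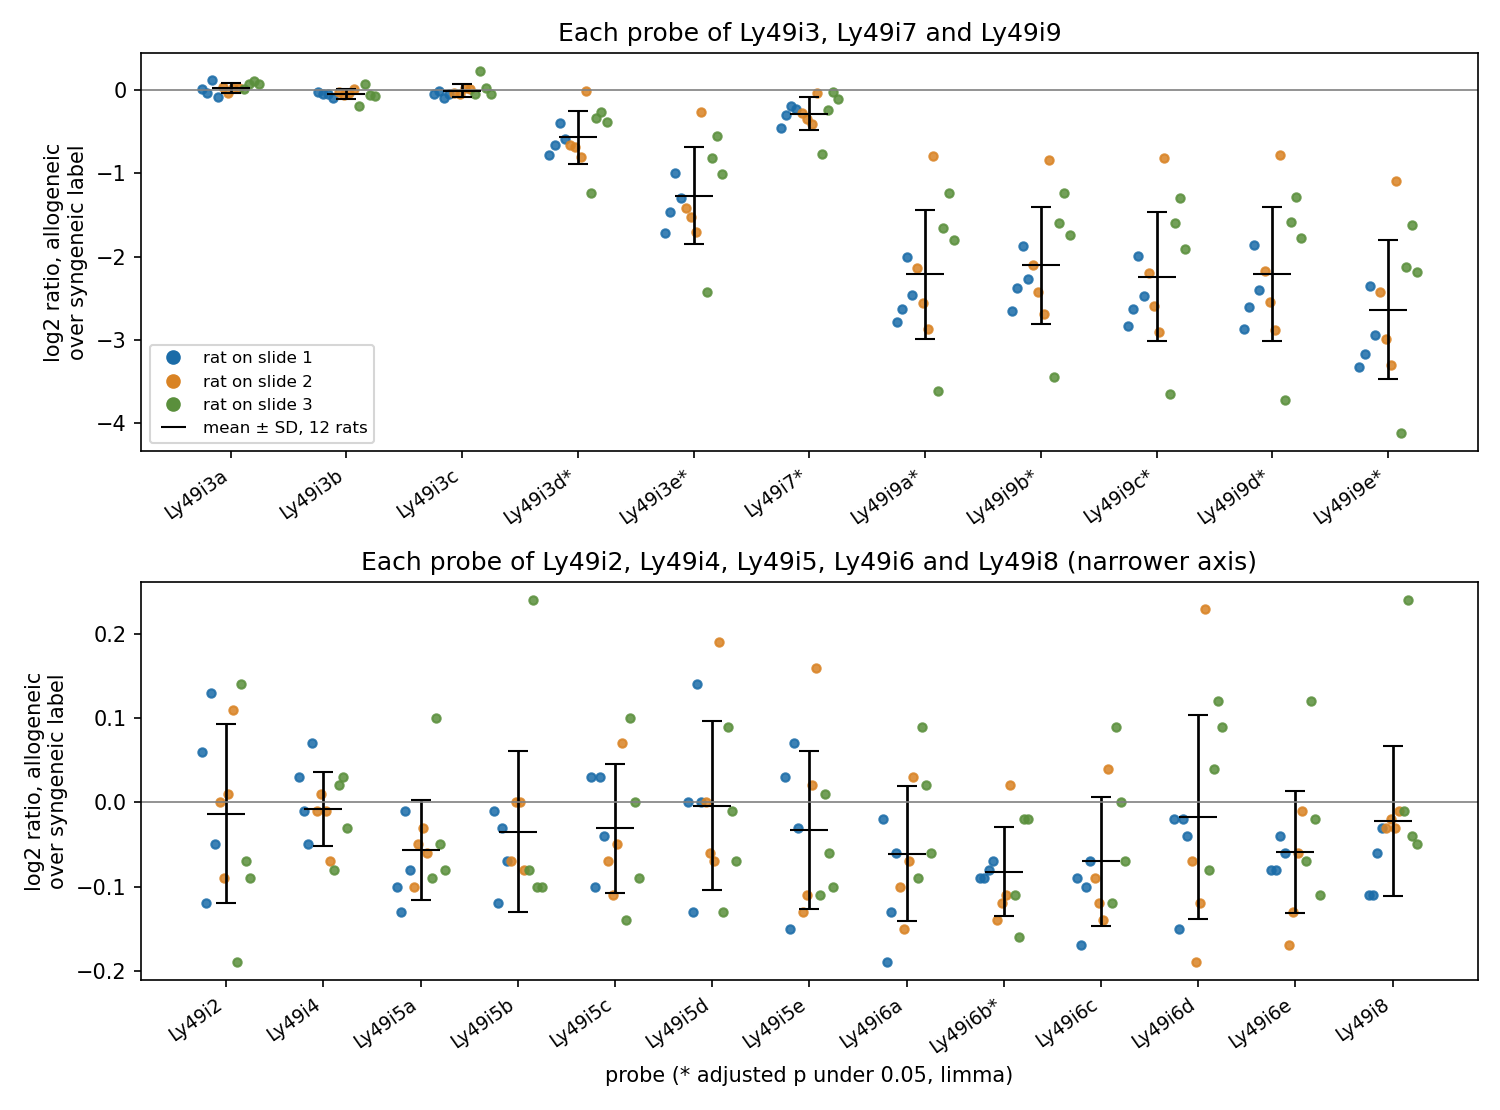
Log2 ratio (y axis) of each of the 24 probes (x axis) in 12 rats, colored by slide, with the mean ± SD in black and an asterisk at an adjusted p under 0.05. The upper panel holds *Ly49i3*, *Ly49i7* and *Ly49i9*, with probes d and e of *Ly49i3* and all of *Ly49i9* and *Ly49i7* below 0 in every rat. The lower panel, on a narrower axis, shows the remaining genes between -0.19 and 0.24.

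*Ly49i7* had 1 probe, whose log2 ratio ran from -0.76 over a median of -0.26 to -0.02. It was lower in 12 of 12 rats, again with rat 9 at the lower end, and its adjusted p over all genes was 0.00471 (limma). The means on the slides were -0.29, -0.27 and -0.28. The signal was dim, with levels of 6.46 to 9.25 in the syngeneic and 6.29 to 9.00 in the allogeneic sample, and the top of both ranges was rat 10. Without that rat they were 6.46 to 7.05 and 6.29 to 6.67. The probe was well above background on 19 and 8 arrays, and the processed signals gave -1.27. The *Ly49si1* probe to which it is most alike in sequence was at -2.44 ± 0.91.

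*Ly49i6* had a mean of -0.058 ± 0.068 and was not called as a gene (adjusted p = 0.0804, limma), being lower in 9 of 12 rats. Probe Ly49i6b was called, at -0.08 ± 0.05 with an adjusted p of 0.00654, and the rats ran from -0.16 to 0.02. This value depended on the dye. It was -0.16 with the allogeneic sample in Cy3 and 0.00 with it in Cy5, and the difference of 0.16 held in the exact permutation test over rats (adjusted p = 0.0117 over 24 probes). Probe Ly49i6d showed the same, at -0.09 and 0.05. No other probe differed between the orientations after adjustment, although with median centring in place of loess 18 of the 24 did. Probes a, c and e of *Ly49i6* were well above background on at most 6 of 24 arrays in either channel. The difference of b minus d, the 2 brighter probes, was -0.07 with a 95% interval of -0.12 to -0.01 and did not pass the test (exact permutation, adjusted p = 0.213).

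*Ly49i5* had 5 probes between -0.056 and -0.005, of which 0 were called (limma), and the gene mean was -0.032 ± 0.071 (adjusted p = 0.368). None of the 6 pairs among probes a, b, d and e differed, and probe c was near the background. At an unadjusted p under 0.05 probe a was the single one. It shares 34 bases with a probe of *Ly49s5* that was at -0.05 ± 0.05. Rat 10 was the highest in probes a and b, at 0.10 and 0.24, and without array 1 of that rat both were called, at -0.07 and -0.06. The levels of probe a in rat 10 were 11.53 and 11.43, where the other rats lay at 7.11 to 7.38.

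*Ly49i2* was measured well above background on 24 arrays in both channels, at median levels of 6.92 in the allogeneic and 6.87 in the syngeneic sample. Its log2 ratio of -0.011 ± 0.106 was negative in 6 rats and positive in the others, and it was -0.07 with the processed signals. The levels of *Ly49i2* were low, not far above the medians of 6.45 and 6.76 of the dim *Ly49i7* probe. This limits how far its log2 ratio could fall. The probe of *Ly49i4* was well above background on 2 arrays in the allogeneic and 1 in the syngeneic channel, and that of *Ly49i8* on 1 and 2, so that a change in either could hardly show. *Ly49i4* had -0.009 ± 0.044. *Ly49i8* had -0.022 ± 0.090 and was negative in 11 rats, with rat 10 at 0.24. Without array 1 of rat 10 its value was -0.05 and it was called (adjusted p = 0.0255, limma).

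The probes of *Ly49i4* and *Ly49i8* were near the background, so that pairs with these genes are left out below. Among the other 6 genes, 12 of 15 pairs differed (exact permutation of signs, two-sided, adjusted over all 28 pairs of the 8 genes; the smallest p that 12 rats allow is 0.000488). *Ly49i9* was lower than each of the other 5 in all 12 rats, by 1.91 to 2.27, with an adjusted p of 0.00114. *Ly49i3* and *Ly49i7* came next and also differed from each other. The probe of *Ly49i7* was well above background on 19 arrays in the syngeneic channel but 8 in the allogeneic one. Its pairs are therefore given as a description. The difference of *Ly49i3* minus *Ly49i7* was -0.09 ± 0.08 and negative in 11 of 12 rats (exact permutation, adjusted p = 0.00683). It depends on the mix of probes, since the mean of *Ly49i3* takes in its dim probes b and c. The filter on dim probes looked at either channel, and probe d of *Ly49i3* and the *Ly49i7* probe passed it through the syngeneic one. With dim probes left out *Ly49i3* was at -0.6, and as the median over its probes at -0.05, against -0.28 for *Ly49i7* in both. The order turned with that median and with the processed signals, at -0.99 and -1.27. Both genes were lower than each of *Ly49i2*, *Ly49i5* and *Ly49i6*. None of the 3 pairs among these last genes passed the test. Their differences were at most 0.05 in size, and the 95% intervals all lay between -0.01 and 0.10.

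By the pattern over the 12 rats, the genes most like *Ly49i9* among those with a detectable probe were *Ly49si1* (Pearson r = 0.988), *Ly49si2* (0.984), *LOC690045* (0.983), *Ly49i3* (0.981) and *Ly49si3* (0.980), given as a description. All 5 are on the study's NKC list, and some of their probes share sequence with those of the *Ly49i* genes to the extent given above. Next came *Cdh23* at 0.955, a gene with a log2 ratio of -0.04 that was not called (adjusted p = 0.628, limma), and *Pcsk1* at 0.950, neither of them on that list, and then *Ly49s8* at 0.934 and *Klra5* at 0.930. *Ly49i7* was at 0.929, and the remaining members lay at or below 0.77. Against the bifunctional genes, a comparison chosen after their values were known, *Ly49i9* was lower in all 12 rats, with differences of -0.80 from *Ly49si1*, -0.93 from *Ly49si2* and -1.11 from *Ly49si3* (exact permutation, adjusted p = 0.000651 over 4 pairs). Its difference from *LOC690045* was -0.06, with a 95% interval of -0.21 to 0.09.

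**Figure D4:**
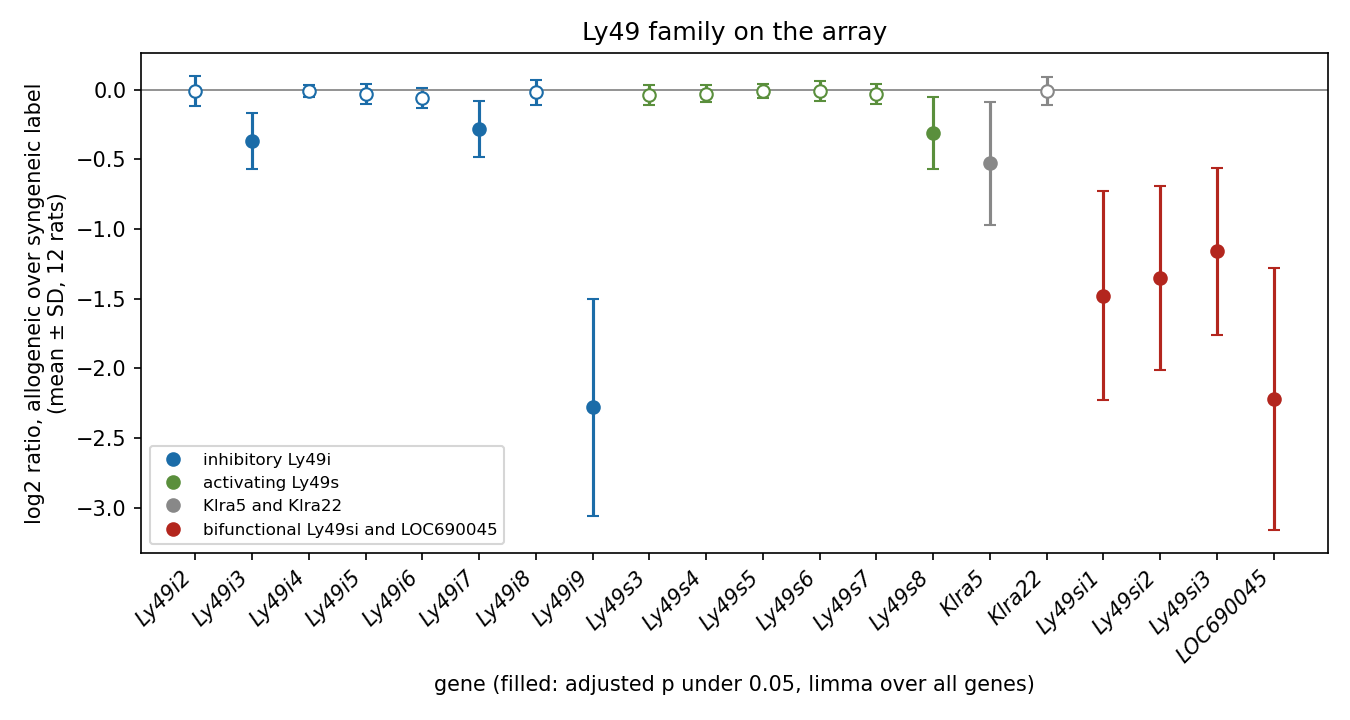
Mean log2 ratio ± SD over 12 rats (y axis) of the genes of the *Ly49* family on the array (x axis), colored by class, with filled symbols for an adjusted p under 0.05. *Ly49i9* at -2.28 lies beside *LOC690045* at -2.22, and most inhibitory and activating genes lie near 0.

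The other parts of the receptor pathway were described by lists of genes, by count and median. Over all 7249 genes on the array, 548 or 7.56% were called lower and 626 higher. A single called gene in a list is not read as a change of that list. Of the 4 bifunctional genes, *LOC690045* counted among them, 4 were lower, with a median of -1.413. Among the 6 activating *Ly49s* genes 1 was lower, *Ly49s8* at -0.31 ± 0.26, with a median of -0.027. Of 12 lectin receptors of the NKC outside *Ly49*, among them the CD94 gene *Klrd1* and the NKG2D gene *Klrk1*, 1 was lower, *Klrb1a* at -0.12 ± 0.11, and their median was 0.031. The ligands of the inhibitory receptors are class I molecules. Of 20 class I genes including *B2m*, 16 were lower and 0 higher, with a median of -0.246. Downstream of the ITIM, 3 of 6 genes were lower: *Ptpn6*, the gene of SHP-1, at -0.41 ± 0.23, the lipid phosphatase gene *Inpp5d* at -0.49 ± 0.21 and the Src family kinase gene *Lyn* at -0.39 ± 0.18. *Ptpn11*, the gene of SHP-2, had -0.01 ± 0.07. Of 8 genes of activating adaptors and kinases, 4 were lower and 1 higher. *Tyrobp*, the gene of DAP12, had -0.71 ± 0.32 and *Vav1* -0.85 ± 0.50, and *Plcg1* was higher at 0.29 ± 0.14.

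Markers of cells that could carry or surround the receptors were counted in the same way, to be read beside the same numbers over all genes. Of 13 NK cell markers on the array 6 were lower and 0 higher, with a median of -0.086. These were the cytotoxic granule genes *Gzmc* at -1.34 ± 0.68, *Gzmb* at -0.69 ± 0.47, *Gzma* at -0.38 ± 0.39 and *Nkg7* at -0.31 ± 0.20, the cytokine receptor chain *Il2rb* at -0.63 ± 0.37, and *Klrb1a*. The NK receptor genes *Ncr1* at -0.01 ± 0.07, *Ncr3* at 0.00 ± 0.08, *Klrd1* at -0.09 ± 0.15 and *Klrk1* at -0.01 ± 0.06 were not called. Nor were the granule genes *Prf1* at -0.08 ± 0.13 and *Gzmk* at -0.03 ± 0.06, or *Il18rap* at 0.03 ± 0.09. The summed intensity of the NK list was 3060 to 6912 (median 3385) in the samples labeled as allogeneic and 3499 to 8939 (median 4699) in those labeled as syngeneic, and it was lower in the allogeneic sample of all 12 rats, with rat 10 at the top of the allogeneic range. For T cells, 5 of 12 markers were lower and 0 higher, with a median of -0.209 and sums of 3794 to 10715 and 4332 to 13005, lower in 9 of 12 rats. The macrophage markers, of which 4 of 6 were lower, had a median of -0.412 and sums of 3971 to 16566 and 5923 to 27872, lower in 12 of 12 rats. None of 3 B cell markers was called (limma), nor either of the 2 keratinocyte markers on the array, *Cdh1* and *Tp63*, whose median was 0.252 and whose probes were well above background on 24 arrays in both channels. Of all these markers, the T cell gene *Cd28* was the dimmest by this measure, being well above background on 4 arrays in the allogeneic and 2 in the syngeneic channel. The part of these cells in the *Ly49i* values was not tested.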

How the data were processed

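The 24 two-color arrays of 12 BN rats were assigned to rat and dye orientation by their labels. Per the file headers, the mean intensity and the median local background of each spot were extracted with Feature Extraction 9.5.1.1, without background subtraction or normalization, and processed intensities, background-subtracted and dye-normalized, are in the same deposited files. The authors also deposited a table of log2 ratios whose direction and scale are not stated. Its columns had correlations of 0.703 to 0.957 with the turned processed log ratios and were taken as turned.

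Mean intensities were corrected by normexp (offset 50) and normalized by loess in R 4.3.3 with limma 3.58.1, with control and outlier spots left out. Ratios were averaged over spots and then over a rat's 2 arrays, which hold the same RNA and so pair its explants on each array. Channel levels were taken after Aquantile normalization. A probe counted as well above background on an array if at least 1 spot was. Genes were named by the study's MHC and NKC lists (639 and 97 probes), by a reference table (4323) or by the array files (3394). All 8 *Ly49i* genes and their probes were described, and likeness was ranked by Pearson correlation. Members and lists were chosen with earlier results of these data known.

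Alternatives concerned background, normalization, dye orientation, dim probes, outlier spots, slide, test, rat block, the deposited table, the mean over probes and leaving out rats. The limma step was tested on simulated data (8453 probes, 12 rats). It called 99% of the 200 probes that had been changed, and 7.04% of its calls were false. The planted changes were all larger in size than the gene means of every *Ly49i* gene except *Ly49i9*. They were placed in single probes, with errors independent between probes, and no gene means were simulated. These rates therefore do not apply to calls of such small changes or of gene means, or to rat effects that probes share. The methods name an earlier software version and another amplification kit than the headers and labels do.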

Additional observations from a re-analysis of the deposited data

How the results depend on the processing

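The log2 ratios of *Ly49i9* and *Ly49i7* were negative and called under every alternative, between -3.69 and -2.19 and between -1.27 and -0.26 with all rats. *Ly49i3* was called under every alternative except the median over its probes (-0.05), and lay between -0.99 and -0.34 otherwise. No called value changed its sign, and 110 of the 118 gene values under the alternatives stayed on their side of the threshold. *Ly49i6* was called at -0.28 with the processed signals, -0.10 with the allogeneic sample in Cy3 only, -0.06 with no replicate block and -0.35 with the series table, and, as an alternative added after seeing the data, at -0.07 without array 1 of rat 10. *Ly49i8* was called at -0.47 with the series table and at -0.05 without that array. The number of probes called lower, 9 of 24, was 14 with no replicate block and 15 with the series table. It was also 15 without array 1 of rat 10. That of genes called lower, 3 of 8, was 5 with the series table and 5 without that array. Over all 8453 probes, calls in either direction also rose from 1459 with no replicate block. They rose less without array 1 of rat 10 and did not rise with the series table. The setting with no replicate block takes the 2 arrays of a rat, which hold the same RNA, as independent. With 24 arrays and the rat as a random replicate block, 9 probes and 3 genes were called lower, *Ly49i9* at -2.28, and no call of a member changed.

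With each rat left out in turn, 9 to 15 probes and 3 to 5 genes were called lower, with rat 10 behind both upper ends. *Ly49i9* lay between -2.41 and -2.15, *Ly49i3* between -0.40 and -0.33, *Ly49i7* between -0.30 and -0.24, *Ly49i6* between -0.07 and -0.05 (called without rat 8 or rat 10) and *Ly49i8* between -0.05 and -0.01 (called without rat 10). The probes that differed between dye orientations were 2 of 24, or 2 to 8 with a rat left out (8 without rat 10), 18 with median centring and 5 with the series table. Of the 10 pairs of *Ly49i6* probes, 0 differed, against 6 with the processed signals, 6 with the series table and 4 with Cy3 only. Of those of *Ly49i5*, 0 differed, against 1 with Cy5 only and 4 with Cy3 only, and of those of *Ly49i9*, 8, against 4 with Cy5 only. The filter on dim probes kept those well above background in either channel on at least 12 arrays. It left 16 of the 24 probes and gave no value for *Ly49i4* and *Ly49i8*. The causes of these changes were not tested, and for the 8 probes below that filter the low signal over background limits what a log2 ratio can show.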
